A study of Mus musculus with 16 samples.

Results

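The genes described here encode heat shock proteins, their J-domain partners and the cytosolic chaperonin. They are the genes whose symbols start with Hspa, Hspb, Hspd, Hspe, Hsph, Hsp90, Dnaja or Dnajb, together with Cct2 to Cct8 and Tcp1, and whose counts sum to at least 100 over all 16 libraries. Of 55 symbols of this form in a table of 55416 gene IDs, 43 met the count minimum, 12 did not, and symbols of pseudogenes were left out. The member nearest the minimum was Hspa12a with 202 counts, followed by Hspb11 with 879 and Hspb6 with 950. Just outside it lay Cct6b with 75 counts, Hspb7 with 57 and Hspb9 with 49. By the compartment in which their proteins are known to work, 22 members were assigned to the cytosol and nucleus, 8 to the cytosolic chaperonin, 7 to the endoplasmic reticulum, 4 to the mitochondrion and 2 to the cilium or flagellum. The prefix also takes in Hspbp1 and Hspbap1, which encode proteins that bind heat shock proteins and are not chaperones of those families.

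Chaperones bind unfolded or newly made proteins and help them to reach and keep their folded state. HSP70 proteins do so in cycles of ATP hydrolysis that J-domain proteins start and nucleotide exchange factors end, HSP90 proteins act later on folding clients such as kinases and receptors, and the chaperonin encloses actin and tubulin in a barrel-shaped complex. Some of these genes are always on. Others are switched on when proteins misfold, by heat shock factors for the cytosol or by the unfolded protein response for the endoplasmic reticulum. A macrophage that engulfs a dying cell remodels actin and takes up a large load of foreign protein, so both branches are of interest in these cells.

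RNA came from macrophages of the Hoxb8 line, a mouse bone marrow line in which progenitors are kept dividing by the transcription factor Hoxb8 before they mature. Dying Jurkat cells, which derive from a human T cell leukaemia, were added to the macrophages for 45, 90 or 180 min to follow efferocytosis, the uptake of apoptotic cells, and a further group received none. All 4 groups held 4 libraries each, and all libraries came from the same line, so the values describe this line and not several animals. The collection time of the group without Jurkat cells is not stated in the labels, so time in culture and contact with apoptotic cells cannot be told apart. Separate cultures are not stated either. The p-values therefore set group differences only against the spread between these libraries, which may be technical in part.

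Counts per library summed to between 10690809 and 41688999, and the members together held between 0.497% and 0.562% of them. The sums ran from 18681977 to 27654812 in macrophages alone and from 24378422 to 41688999 at 45 min. At 90 min they ran from 13595345 to 17421443, below every library of those groups, and at 180 min from 10690809 to 23423640. Depth thus went together with group wherever 90 min was compared with macrophages alone or 45 min. Libraries thinned to the depth of the shallowest are among the alternatives given below. The 8 macrophage markers checked were all detected in each group, with a summed level of 1.05e+04 counts per 1000000 counts (CPM) in macrophages alone, 1.18e+04 CPM at 45 min, 1.03e+04 CPM at 90 min and 1.00e+04 CPM at 180 min. Of 12 markers of T or Jurkat cells, Cd3e, Cd3g, Cd2, Trbc1 and Trbc2 were at 0 counts in every group. Their summed level was 13.3 CPM in macrophages alone, 10.8 CPM at 45 min, 11.3 CPM at 90 min and 14.3 CPM at 180 min, most of it from Cd28, which was at 12.3 CPM in macrophages alone. A mouse annotation need not count human reads, so these markers limit mouse-like T cell reads only, and the part that human chaperone reads may have in the counts was not tested. In bulk RNA, a lower value can come from fewer cells with the transcript or from less of it in each cell, and these cannot be told apart.

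Levels between genes were compared per kilobase of exon. In macrophages alone the cytosolic Hsp90ab1 had the highest level, 239 CPM per kilobase, followed by Hspa8, the constitutive cytosolic HSP70, at 188 CPM per kilobase. The mitochondrial HSP70 Hspa9, at 110 CPM per kilobase, and the endoplasmic reticulum HSP70 Hspa5, known as BiP, at 107 CPM per kilobase, came next. Hsp90aa1, the stress-inducible partner of Hsp90ab1, was at 72 CPM per kilobase, and Hsp90b1, the HSP90 of the endoplasmic reticulum, was at 56.4 CPM per kilobase. The 8 chaperonin subunits, which are built into the complex in equal copies, ranged from 18.2 CPM per kilobase for Cct3 to 55.2 CPM per kilobase for Cct2. The heat-inducible HSP70 genes Hspa1b and Hspa1a stood near the low end, at 1.31 and 0.958 CPM per kilobase, and Hspa12a was lowest at 0.0363 CPM per kilobase. The small heat shock protein genes Hspb1 and Hspb8, common markers of a heat shock response, held 4 and 8 counts in all 16 libraries together.

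**Figure D1:**
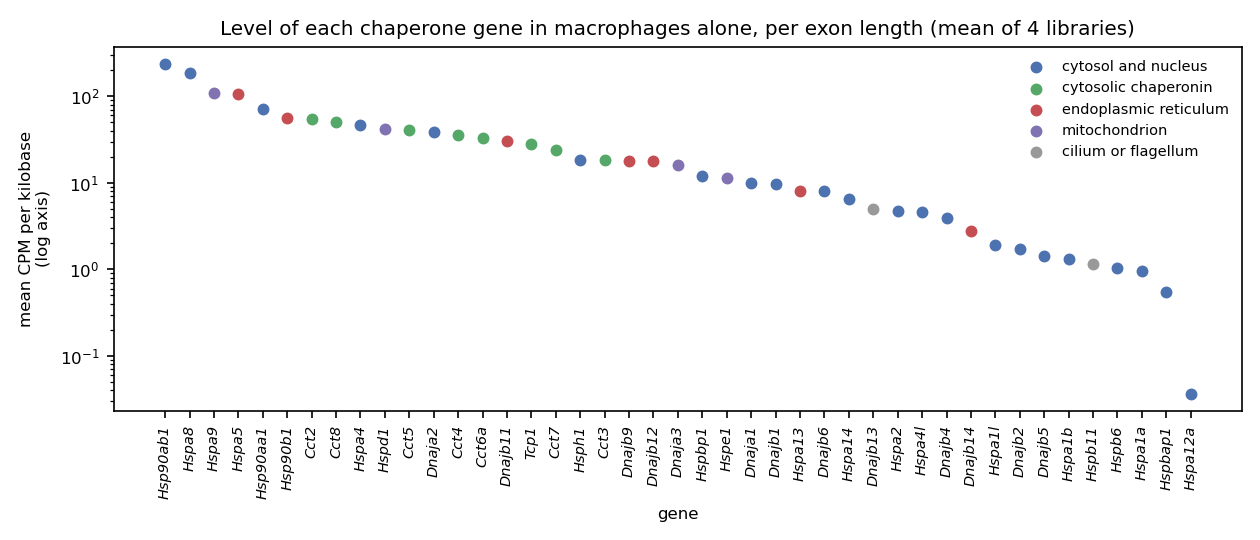
Mean level of each of the 43 genes in macrophages alone (4 libraries), in CPM per kilobase of exon on a log axis, ordered from highest to lowest and coloured by compartment. Hsp90ab1 (239 CPM per kilobase) and Hspa8 (188 CPM per kilobase) lie at the left, Hspa1a (0.958 CPM per kilobase) and Hspa12a (0.0363 CPM per kilobase) at the right.

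Differences between groups were tested with edgeR's quasi-likelihood test over all 14168 genes that passed a filter on low counts, with Benjamini-Hochberg adjustment, and a gene is said to have risen or fallen only at an adjusted p under 0.05. All 43 members were tested. Of these, 42 stood above the filter's level in every library, whereas Hspa12a did so in 7 libraries, of which 4 were the 180 min libraries, and its test is therefore not independent of its high value there. At 45 min, 1 member rose and 1 fell against macrophages alone, where 4.69% of all tested genes rose and 6.11% fell. At 90 min, 7 of 43 members fell, or 16.3%, beside 9.97% of all genes, and 0 rose, beside 11.1% of all genes. DESeq2 also called 0 members higher at 90 min, and at an unadjusted edgeR p under 0.05 there were 3, Dnajb13 at 0.28 on the log2 scale, Hspe1 at 0.25 and Dnajb4 at 0.17. At 180 min, 10 of 43 fell, or 23.3%, beside 16% of all genes, and 2 rose, or 4.65%, beside 15.1% of all genes. Over the 3 times together, 17 of 43 members changed, beside 44.6% of all genes. The falls at 180 min ran from 0.13 for Cct7 to 0.83 for Hspa1l on the log2 scale. The median log2 fold change of the 43 members was 0.05 at 45 min, -0.04 at 90 min and -0.03 at 180 min, beside 0.00, 0.00 and 0.01 for all tested genes.

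Groups that did not overlap were counted as well. At 45 min every library lay above every library of macrophages alone for 1 of 43 members, Cct7, beside 8.17% of all genes, and below for 1, Dnajb14, beside 8.77%. At 90 min every library lay below every library of macrophages alone for 8 of 43 members, beside 10.2% of all genes, and above for 1 member, beside 11% of all genes. At 180 min these counts were 9 members below, beside 14.8% of all genes, and 1 member above, beside 13.8% of all genes.

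**Figure D2:**
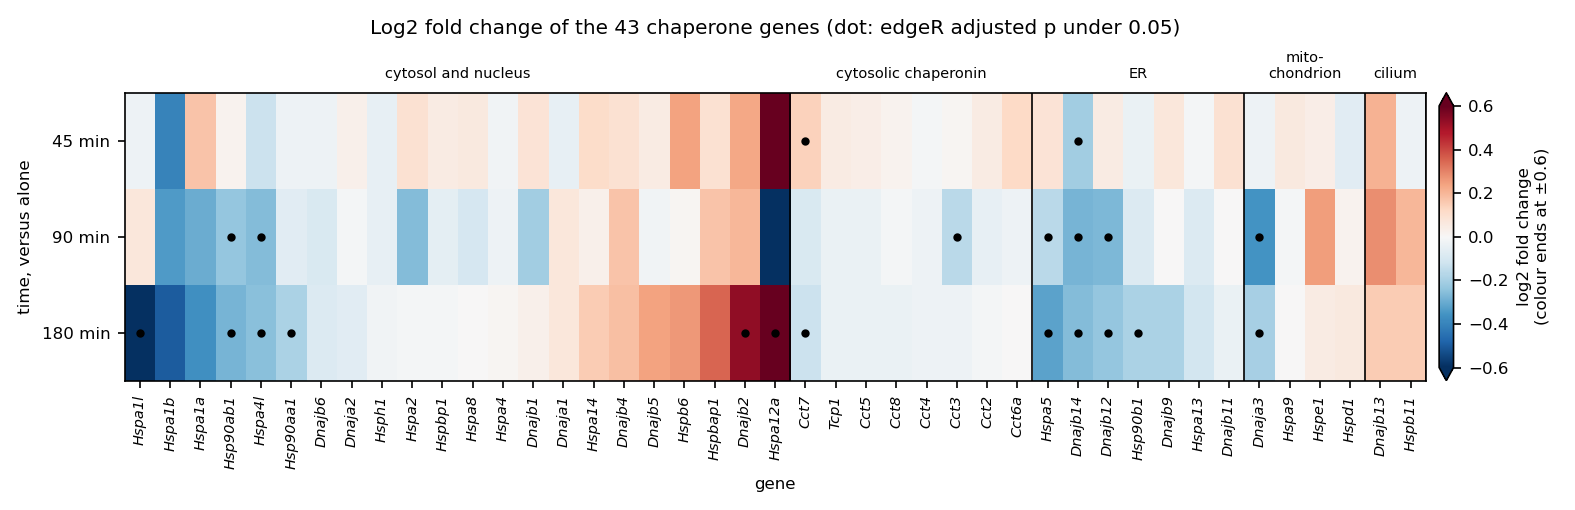
Log2 fold change of the 43 genes at 45, 90 and 180 min against macrophages alone, grouped by compartment and ordered by the value at 180 min, with colours that end at 0.6 in either direction and a dot where edgeR's adjusted p is under 0.05. Dots appear for 2 genes at 45 min, 7 at 90 min and 12 at 180 min, and 4 of the 12 are among the 7 genes of the endoplasmic reticulum.

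The genes of the endoplasmic reticulum held the member with the smallest p. Of its 7 genes, 1 fell at 45 min, beside 6.11% of all tested genes, 3 fell at 90 min (42.9%), beside 9.97%, and 4 fell at 180 min (57.1%), beside 16%. By edgeR's test 0 of the 7 rose at any of these times, as by DESeq2, and 0 were higher at an unadjusted p under 0.05. Of all tested genes 4.69%, 11.1% and 15.1% rose at 45, 90 and 180 min. Their median log2 fold change was 0.05 at 45 min, -0.08 at 90 min and -0.19 at 180 min. Summed over the 7 genes, the level was 981.6 ± 22.3 CPM (SD, n = 4) in macrophages alone, 1004 ± 28.9 CPM at 45 min, 900.5 ± 28.8 CPM at 90 min and 834.9 ± 27.1 CPM at 180 min (n = 4 each). The highest 180 min library, at 872.4 CPM, lay below the lowest 90 min library, at 875.9 CPM, and the lowest library of macrophages alone was at 956.7 CPM.

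Hspa5 is the HSP70 of the endoplasmic reticulum lumen, where it also holds the sensors of the unfolded protein response inactive. Its libraries were at 447, 438, 476 and 441 CPM in macrophages alone, 472, 455, 486 and 489 CPM at 45 min, 396, 389, 411 and 414 CPM at 90 min, and 379, 357, 344 and 361 CPM at 180 min. Every 90 min library was below every library of macrophages alone, and every 180 min library was below every 90 min library. Against macrophages alone, Hspa5 fell by 0.16 on the log2 scale at 90 min (SE 0.04, edgeR adjusted p = 0.00272) and by 0.32 at 180 min (SE 0.04, adjusted p = 4.79e-09), a change of -20.1%. At 45 min the value was 0.08 (SE 0.04, adjusted p = 0.262), and from 45 to 90 min Hspa5 fell by 0.24 (SE 0.04, adjusted p = 8.20e-06). From 90 to 180 min it fell by 0.16 (SE 0.04, adjusted p = 0.00557). Without 180 min library 3 that last value was -0.13 with an adjusted p of 0.0675.

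Hsp90b1 encodes GRP94, the HSP90 of the same compartment, which folds Toll-like receptors and integrins. It was at 215, 236, 224 and 234 CPM in macrophages alone, 222, 207, 231 and 222 CPM at 45 min, 200, 209, 226 and 225 CPM at 90 min, and 201, 190, 198 and 208 CPM at 180 min. The 90 min libraries overlapped those of macrophages alone, and the 180 min libraries were all below them. Hsp90b1 fell by 0.19 at 180 min (SE 0.05, edgeR adjusted p = 0.00121), and its log2 fold change at 90 min was -0.08 (SE 0.05, adjusted p = 0.258).

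Hspa5 and Hsp90b1 share a promoter feature that the other members with a promoter in RefSeq's table lacked. The ER stress element, CCAAT and CCACG with any 9 bases between them, is the sequence at which the transcription factors NF-Y and ATF6 are known to switch on genes of the unfolded protein response. It was searched on both strands in the 250 bases before each start in RefSeq promoters of the mouse build GRCm38.p6, and occurred in 2 of 37 members (5.41%) and in 35 of 27025 genes (0.13%). The counts were made on the build mm39, so the coordinates below are those of RefSeq's table only. The stretches are shown because both genes fell at 180 min. Capitals mark the matches, and the second match of Hsp90b1 reads on the opposite strand.
Hspa5, chr2:34772020-34772049, plus strand, from 70 to 41 bases before the start: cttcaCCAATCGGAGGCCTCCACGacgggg
Hsp90b1, chr10:86705513-86705676, minus strand, from 232 to 69 bases before the start: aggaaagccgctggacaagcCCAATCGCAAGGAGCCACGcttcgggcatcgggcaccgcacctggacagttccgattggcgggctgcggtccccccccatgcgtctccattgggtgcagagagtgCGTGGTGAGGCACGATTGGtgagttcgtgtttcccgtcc

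Of the 35 genes with this element, 17 were among the tested genes. This set was formed after values of several of its genes had been seen, so it is given as a description only. At 180 min 5 of the 17 fell, namely Hspa5, Hsp90b1, Calr, Canx and Syvn1. The 3 that rose were Pan2 at 0.54, Hnrnpa3 at 0.23 and Adcy3 at 0.18 on the log2 scale. Of all tested genes 16% fell and 15.1% rose at that time. The median log2 fold change was -0.09, beside 0.01 for all tested genes. At 90 min 4 of the 17 fell and 2 rose, beside 9.97% and 11.1% of all tested genes, and the median was -0.02. At 45 min 0 of the 17 rose and 0 fell by edgeR's test, beside 4.69% and 6.11% of all tested genes. At an unadjusted p under 0.05, 1 was higher and 0 were lower, and the median was 0.01. A match says that these letters are present and not that a factor was bound in these cells.

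Dnajb12 and Dnajb14 encode J-domain proteins anchored in the endoplasmic reticulum membrane with the J domain facing the cytosol, where they help HSP70 to clear misfolded membrane proteins. Dnajb12 was at 62.5, 60.9, 58.5 and 56.6 CPM in macrophages alone, 61.1, 64.1, 60.5 and 62 CPM at 45 min, 47.2, 49.5, 53.2 and 48.0 CPM at 90 min, and 54.7, 49.3, 48.4 and 50.8 CPM at 180 min. All libraries of the later times were below all of the earlier ones. It fell by 0.27 at 90 min (SE 0.06, edgeR adjusted p = 0.000848) and by 0.23 at 180 min (SE 0.06, adjusted p = 0.00244), with a value of 0.04 between those times (SE 0.06, adjusted p = 0.801). Dnajb14 was at 44.1, 43.1, 44.9 and 45.0 CPM in macrophages alone, 39.7, 38.0, 38.1 and 37.1 CPM at 45 min, 35.9, 42.8, 31.8 and 35.5 CPM at 90 min, and 37.4, 35.4, 38.0 and 36.9 CPM at 180 min. Its libraries with apoptotic cells were all below those kept alone, with 90 min library 2 close to them. Dnajb14 fell by 0.21 at 45 min (SE 0.07, adjusted p = 0.0394), 0.28 at 90 min (SE 0.07, adjusted p = 0.00402) and 0.26 at 180 min (SE 0.07, adjusted p = 0.00407). The call at 45 min was lost when any of the 8 libraries compared was left out (adjusted p from 0.0751 to 0.162). After removal of a trend with exon length and base composition (GC), the value at 45 min was 0.03 (adjusted p = 0.897) and that at 180 min was -0.17 (adjusted p = 0.0875). Dnajb14 has the longest exon sequence of the members, 15.7 kilobases.

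The 3 remaining genes of the compartment did not pass the test at any time against macrophages alone. Dnajb9 encodes ERdj4, a luminal J-domain partner of Hspa5 and a classical target of the unfolded protein response. It was at 39.5, 42.9, 50.2 and 50.7 CPM in macrophages alone, 47.4, 44.9, 51.4 and 48.0 CPM at 45 min, 50.7, 41.7, 44.6 and 46.4 CPM at 90 min, and 44.5, 42.9, 35.6 and 39.0 CPM at 180 min. Each later group overlapped macrophages alone, the value at 180 min was -0.19 (SE 0.08, edgeR adjusted p = 0.0620), and Dnajb9 passed only the test over the 3 times (adjusted p = 0.0356). The values at 180 min were -0.11 for Hspa13, an HSP70-like protein of microsomes (adjusted p = 0.235), and -0.04 for Dnajb11, the luminal J-domain protein ERdj3 (adjusted p = 0.638).

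**Figure D3:**
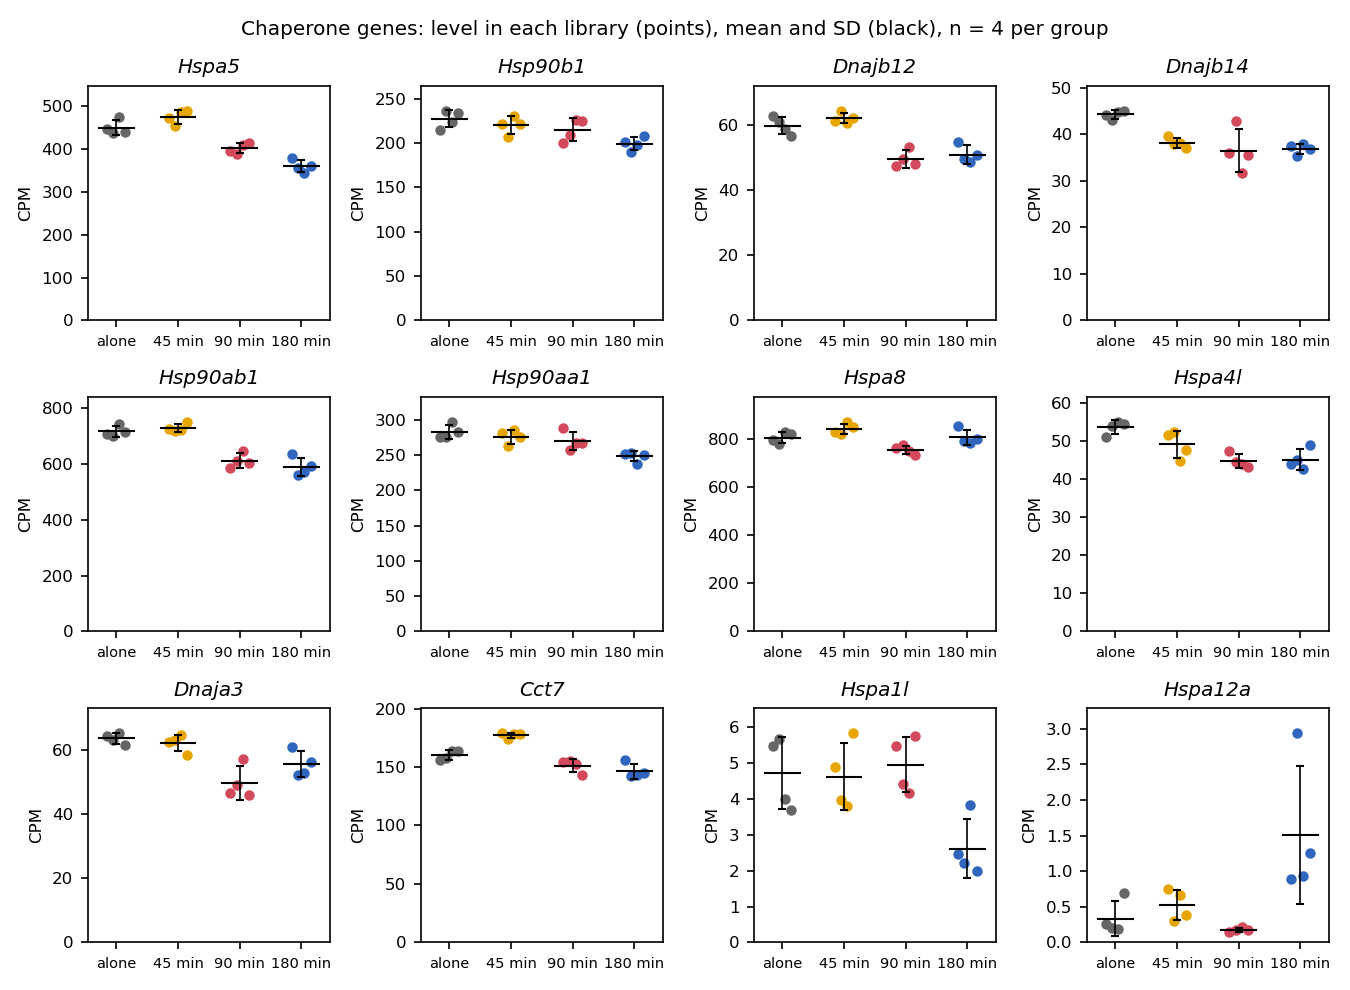
Level in CPM of 12 of the 43 genes in each library (points) with the mean and SD of each group (black), n = 4 per group, every axis starting at 0. Hspa5 steps down from 451 CPM in macrophages alone to 402 CPM at 90 min and 360 CPM at 180 min, Cct7 is highest at 45 min, and the 180 min libraries of Hspa12a are spread from 0.886 to 2.94 CPM.

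Other genes of folding, quality control and stress signalling in the endoplasmic reticulum were taken from a list of 25, of which 24 were tested. At 45 min 1 rose and 1 fell (4.17% each), beside 4.69% and 6.11% of all tested genes. At 90 min 0 rose by edgeR's test or DESeq2 (1 at an unadjusted p under 0.05), beside 11.1% of all genes, and 8 fell (33.3%), beside 9.97%. At 180 min 1 rose, beside 15.1% of all genes, and 13 fell (54.2%), beside 16%. The list's median log2 fold change was 0.05, -0.11 and -0.15 at the 3 times, beside 0.00, 0.00 and 0.01 for all tested genes. Herpud1, which scaffolds the complex that exports misfolded proteins for degradation, was at 20.8, 21.0, 19.9 and 17.4 CPM in macrophages alone and 11.4, 8.91, 10.4 and 13.7 CPM at 180 min, with no overlap. It fell by 0.81 at 180 min (SE 0.11, edgeR adjusted p = 1.07e-08). Syvn1, the ubiquitin ligase of that complex, fell by 0.47 at 180 min (SE 0.06, adjusted p = 7.36e-10), and Calr, the lectin chaperone calreticulin, fell by 0.23 (SE 0.04, adjusted p = 1.55e-05). Hyou1, a large HSP70-related exchange factor for Hspa5, fell by 0.23 at 90 min (SE 0.05, adjusted p = 0.000431) and by 0.21 at 180 min (SE 0.05, adjusted p = 0.000891).

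Among the stress regulators of that list, Ddit3, which encodes the transcription factor CHOP, was highest at 45 min. It was at 119, 115, 121 and 103 CPM in macrophages alone, 131, 131, 136 and 127 CPM at 45 min, 94.6, 112, 108 and 92.9 CPM at 90 min, and 102, 93.1, 89.7 and 95.6 CPM at 180 min. The 45 min libraries were all above those kept alone and the 180 min libraries all below them. Ddit3 rose by 0.20 at 45 min (SE 0.06, edgeR adjusted p = 0.0128) and fell by 0.17 at 90 min (SE 0.06, adjusted p = 0.0278) and by 0.27 at 180 min (SE 0.06, adjusted p = 0.000141). With library 4 of macrophages alone left out, the rise had an adjusted p of 0.0705. The fall at 90 min was lost in 6 of 15 alternatives, among them leaving out library 1, 2 or 3 of macrophages alone or 90 min library 1 or 4 (adjusted p up to 0.147). Xbp1, the factor that is activated by splicing during the unfolded protein response, had a log2 fold change of 0.11 at 45 min (adjusted p = 0.194), -0.09 at 90 min (adjusted p = 0.259) and -0.00 at 180 min (adjusted p = 0.998). Gene counts do not show its splicing.

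**Figure D4:**
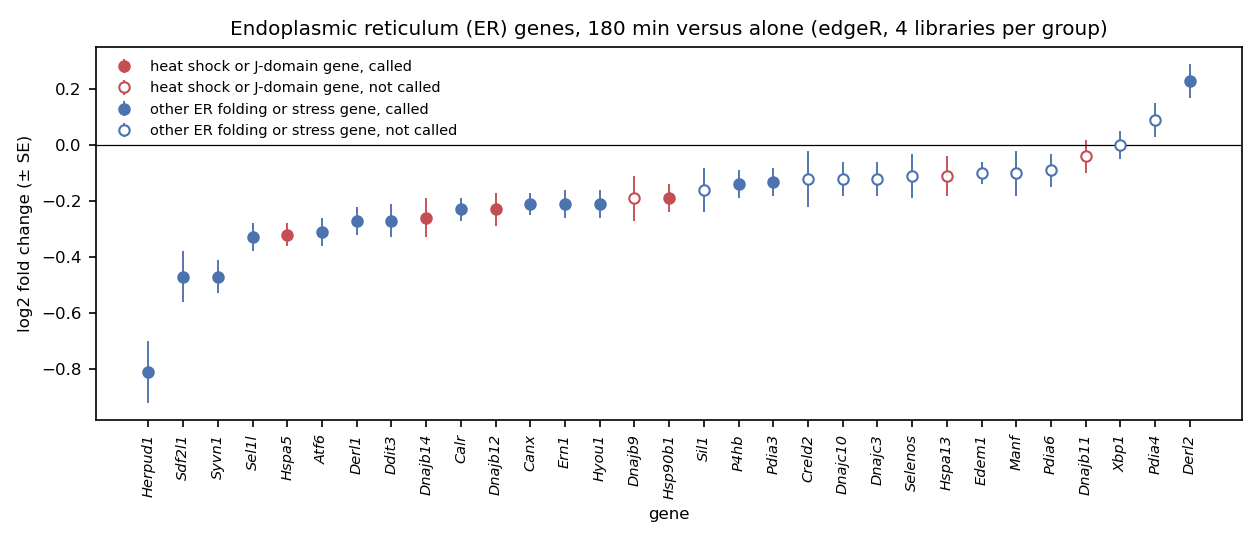
Log2 fold change at 180 min against macrophages alone with its standard error for the 7 endoplasmic reticulum genes among the 43 (red) and 24 other folding or stress genes of that compartment (blue), ordered by value, with filled points where edgeR's adjusted p is under 0.05. Filled points below 0 number 4 in red and 13 in blue, from Herpud1 at -0.81 to Pdia3 at -0.13, and Derl2 is the filled point above 0. Pdia3 and Derl2 are named as the ends of the called range after their values were seen.

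The cytosolic HSP90 genes fell as well. Hsp90ab1, the constitutive form, was at 708, 701, 745 and 716 CPM in macrophages alone, 725, 718, 723 and 750 CPM at 45 min, 586, 612, 648 and 603 CPM at 90 min, and 635, 559, 573 and 593 CPM at 180 min. Both later groups lay wholly below both earlier ones. Hsp90ab1 fell by 0.23 at 90 min (SE 0.04, edgeR adjusted p = 1.73e-05) and by 0.28 at 180 min (SE 0.04, adjusted p = 7.99e-08), and from 45 to 90 min it fell by 0.25 (SE 0.04, adjusted p = 2.24e-06). Hsp90aa1, the inducible form, was at 276, 276, 297 and 283 CPM in macrophages alone, 281, 263, 286 and 276 CPM at 45 min, 288, 258, 267 and 268 CPM at 90 min, and 252, 253, 238 and 251 CPM at 180 min. Only the 180 min libraries were clear of those kept alone. It fell by 0.19 at 180 min (SE 0.04, adjusted p = 0.000618), with -0.07 at 90 min (SE 0.04, adjusted p = 0.312). Of the counts of both genes, Hsp90aa1 held 28.3 ± 0.211% (SD, n = 4) in macrophages alone, 27.5 ± 0.756% at 45 min, 30.6 ± 1.66% at 90 min and 29.7 ± 1.14% at 180 min (n = 4 each).

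Of 17 co-chaperones of HSP90, 1 fell at 45 min, 3 rose and 1 fell at 90 min, and 3 rose and 3 fell at 180 min. At 180 min these were 17.6% in each direction, near the 15.1% and 16% of all tested genes that rose and fell. At 90 min they were 17.6% and 5.88%, beside 11.1% and 9.97%. The fall at 45 min was 5.88%, near the 6.11% of all tested genes. Ppid, the prolyl isomerase cyclophilin 40, was at 19.2, 18.4, 18.8 and 22.5 CPM in macrophages alone and at 32.2, 27.3, 34.8 and 30.9 CPM at 90 min, without overlap. It rose by 0.67 at 90 min (SE 0.09, edgeR adjusted p = 3.03e-08) and by 0.66 at 180 min (SE 0.09, adjusted p = 1.12e-08). Cdc37l1, a relative of the kinase co-chaperone Cdc37, rose by 0.32 at 90 min (SE 0.07, adjusted p = 0.000604) and 0.39 at 180 min (SE 0.07, adjusted p = 1.25e-05). Its value at 45 min was -0.24 (SE 0.07, adjusted p = 0.0216). That call was lost without library 2 or 4 of macrophages alone or 45 min library 1, 3 or 4 (adjusted p up to 0.189), and with the length and GC trend removed the value was -0.04 (adjusted p = 0.847). Cdc37 itself fell by 0.20 at 180 min (SE 0.06, adjusted p = 0.00477, or 0.0508 without 180 min library 3).

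Among the cytosolic HSP70 genes, the constitutive Hspa8 was at 798, 780, 832 and 821 CPM in macrophages alone, 830, 822, 872 and 850 CPM at 45 min, 764, 776, 750 and 733 CPM at 90 min, and 854, 795, 786 and 800 CPM at 180 min. The 90 min libraries were the lowest, and 3 of the 4 libraries at 180 min lay within the range of those kept alone, with library 1 above it. From 45 to 90 min Hspa8 fell by 0.16 (SE 0.04, edgeR adjusted p = 0.00114). Against macrophages alone its value was -0.10 at 90 min (SE 0.04, adjusted p = 0.0687) and 0.00 at 180 min (SE 0.04, adjusted p = 0.979).

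Hspa1a and Hspa1b, the HSP70 genes that heat shock induces most, did not pass the test at any time. Hspa1a was at 2.67, 3.09, 2.98 and 2.63 CPM in macrophages alone, 3.44, 2.72, 3.17 and 3.49 CPM at 45 min, 2.63, 2.68, 2.40 and 1.57 CPM at 90 min, and 3.20, 1.47, 2.46 and 1.64 CPM at 180 min. Hspa1b was at 3.17, 3.33, 3.89 and 4.35 CPM in macrophages alone, 3.47, 2.48, 2.72 and 2.45 CPM at 45 min, 3.36, 2.50, 3.32 and 2.44 CPM at 90 min, and 4.02, 0.919, 3.10 and 2.15 CPM at 180 min. These levels rest on 16 to 144 counts per library for Hspa1a and 10 to 106 for Hspa1b, and for both genes each later group overlapped macrophages alone. The 95% confidence interval of the log2 fold change at 180 min was -0.89 to 0.15 for Hspa1a (edgeR adjusted p = 0.306) and -1.02 to 0.02 for Hspa1b (adjusted p = 0.148), and at 45 min it was -0.32 to 0.66 and -0.90 to 0.10. Of the counts of Hspa1a, Hspa1b and Hspa8 together, the inducible pair held 0.801 ± 0.0509% (SD, n = 4) in macrophages alone and 0.578 ± 0.240% (n = 4) at 180 min.

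The pair are near-identical copies, and of the 50-base stretches of their exons, 58.8% of those of Hspa1a also occur in Hspa1b and 62.3% of those of Hspa1b in Hspa1a. How the authors' counting treated reads that fit both is not given in the sources used here, so the split between them is uncertain. The identity reaches into the promoter, where 68 of 68 positions around a pair of heat shock pentamers (GAANNTTC, in capitals) were the same. The stretches are shown because heat shock factors bind arrays of such pentamers.
Hspa1a, GRCm38.p6 chr17:34972223-34972290, minus strand: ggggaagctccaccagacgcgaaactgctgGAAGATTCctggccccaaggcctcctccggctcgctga
Hspa1b, GRCm38.p6 chr17:34959305-34959372, minus strand: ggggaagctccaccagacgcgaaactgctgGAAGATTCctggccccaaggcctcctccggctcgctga

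Searched in the same way on both strands, a pair of pentamers, GAANNTTC, lay before the start of 8 of 37 members (21.6%) and of 7.73% of all genes. The longer array of 3 pentamers, which adds any 2 bases and a further GAA to the pair, lay before 3 of 37 (8.11%), namely Dnajb6, Hspd1 and Hspe1, and before 0.514% of all genes. None of these 3 genes passed the test against macrophages alone, nor did Hsf1, the factor that drives the heat shock response. The log2 fold change of Hsf1 was 0.00 at 45 min (SE 0.08, edgeR adjusted p = 0.999), -0.06 at 90 min (SE 0.08, adjusted p = 0.663) and -0.04 at 180 min (SE 0.08, adjusted p = 0.730). Gene counts do not show whether its protein was active. Of 3 heat shock factors tested, 1, Hsf4, rose at 180 min, where 15.1% of all tested genes rose. It rose by 1.35 (SE 0.50, edgeR adjusted p = 0.0343) and did not pass the test over the 3 times (adjusted p = 0.119). Hsf4 was at 0.469, 0.313, 0.566 and 0.697 CPM in macrophages alone and 1.02, 1.10, 1.83 and 1.18 CPM at 180 min. These levels are low.

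Hspa1l, another gene of the same cluster that is best known from the testis, was at 5.48, 5.68, 4.0 and 3.70 CPM in macrophages alone, 4.88, 3.98, 3.79 and 5.83 CPM at 45 min, 5.48, 4.42, 4.17 and 5.75 CPM at 90 min, and 2.45, 2.20, 3.82 and 1.98 CPM at 180 min. The 180 min libraries were the lowest, with library 3 within the range of those kept alone. It fell by 0.83 at 180 min (SE 0.22, edgeR adjusted p = 0.00201) and by 0.90 from 90 to 180 min (SE 0.22, adjusted p = 0.00306). It shares 9.57% of its 50-base stretches with Hspa1a, and its exons overlap those of Gm10501 on the opposite strand, so its level is uncertain. Hspa4l, an HSP110-type exchange factor for HSP70, was at 51.1, 54.0, 55 and 54.6 CPM in macrophages alone, 51.7, 52.5, 44.7 and 47.7 CPM at 45 min, 47.3, 44.6, 44.1 and 43.2 CPM at 90 min, and 44.0, 45.1, 42.6 and 48.9 CPM at 180 min. Both later groups lay below those kept alone. Hspa4l fell by 0.26 at 90 min (SE 0.07, adjusted p = 0.00288) and by 0.25 at 180 min (SE 0.07, adjusted p = 0.00281).

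The other exchange factors of that type did not pass the test. Hsph1, which heat shock induces, was at 131, 135, 136 and 129 CPM in macrophages alone, 120, 127, 134 and 132 CPM at 45 min, 119, 130, 131 and 134 CPM at 90 min, and 130, 141, 127 and 127 CPM at 180 min, so that the groups overlapped throughout. Its log2 fold change at 180 min was -0.02 (SE 0.05, edgeR adjusted p = 0.769), and that of Hspa4 was 0.01 (SE 0.04, adjusted p = 0.885). Hspa2, known from sperm development, fell by 0.35 from 45 to 90 min (SE 0.13, adjusted p = 0.0334), a call lost without 45 min library 1 (adjusted p = 0.0721), 90 min library 3 (adjusted p = 0.0875) or 90 min library 4 (adjusted p = 0.180). Hspa14, which works at the ribosome, was at 0.15 at 180 min on the log2 fold change scale (SE 0.09, adjusted p = 0.180). Exons of Hspa14 overlap those of Gm45902 on the same strand, which held 3799 counts beside 9873, so its level is uncertain.

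Hspa12a, a distant HSP70 relative, had the largest change and the fewest counts. Its counts were 7, 5, 5 and 13 in macrophages alone, 23, 9, 16 and 16 at 45 min, 2, 3, 3 and 3 at 90 min, and 13, 32, 22 and 30 at 180 min. As levels these were 0.252, 0.196, 0.189 and 0.697 CPM, then 0.753, 0.306, 0.660 and 0.387 CPM, then 0.146, 0.175, 0.212 and 0.174 CPM, and last 0.886, 2.94, 0.935 and 1.26 CPM. Every 180 min library was above every other library, and 180 min library 2, the shallowest of all, was the highest. Against macrophages alone it rose by 2.17 at 180 min (SE 0.59, edgeR adjusted p = 0.00271). From 90 to 180 min it rose by 3.01 (SE 0.66, adjusted p = 0.000663). In both comparisons the 180 min libraries are those that carried it past the filter on low counts. With libraries thinned to the depth of the shallowest, Hspa12a was not tested.

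Of 10 co-chaperones of HSP70, 1 rose at 45 min, 1 rose and 3 fell at 90 min, and 2 fell at 180 min. Of all tested genes 4.69% rose at 45 min, 11.1% rose and 9.97% fell at 90 min, and 16% fell at 180 min. Bag3, an exchange factor that heat shock factor induces and that directs clients to autophagy, was at 46.1, 42.3, 43.8 and 39.9 CPM in macrophages alone, 37.3, 36.3, 36.6 and 37.6 CPM at 90 min and 48.2, 41.6, 46.1 and 44.7 CPM at 180 min. The 90 min libraries were below all libraries of those other groups. It fell by 0.22 at 90 min (SE 0.07, edgeR adjusted p = 0.0163, or 0.0526 without library 1 of macrophages alone) and was at 0.07 at 180 min (SE 0.07, adjusted p = 0.488). Stip1, which bridges HSP70 and HSP90, fell by 0.19 at 90 min (SE 0.06, adjusted p = 0.0130), a call lost without library 3 of macrophages alone (0.0654). At 180 min Stip1 was at -0.14 with an adjusted p of 0.0493, which missed the threshold in 10 of 15 alternatives, among them leaving out library 1, 2 or 3 of macrophages alone or 180 min library 2, 3 or 4 (adjusted p up to 0.212). Bag6, a factor for tail-anchored proteins, was at -0.13 at 90 min (SE 0.05, adjusted p = 0.0381), a call lost in 7 of 15 alternatives, among them leaving out library 1 or 3 of macrophages alone or 90 min library 3 or 4 (adjusted p up to 0.127).

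Among the cytosolic J-domain genes, Dnajb1, the main partner of heat-induced HSP70, was at 32.9, 26.9, 33.6 and 31.1 CPM in macrophages alone, 34.0, 33.4, 32.2 and 32.4 CPM at 45 min, 31.1, 28, 24.3 and 24.1 CPM at 90 min, and 32.2, 36.2, 31.4 and 28.4 CPM at 180 min. The 90 min libraries were below all 45 min libraries. Dnajb1 fell by 0.30 from 45 to 90 min (SE 0.09, edgeR adjusted p = 0.00640), with values against macrophages alone of -0.21 at 90 min (SE 0.09, adjusted p = 0.0738) and 0.03 at 180 min (SE 0.09, adjusted p = 0.818). Dnajb2, which passes ubiquitinated proteins to the proteasome, was at 7.03, 8.89, 6.31 and 7.13 CPM in macrophages alone, 5.73, 9.97, 9.28 and 9.37 CPM at 45 min, 8.54, 9.48, 8.42 and 7.31 CPM at 90 min, and 12.0, 12.7, 8.62 and 9.56 CPM at 180 min. It was the highest at 180 min, where library 3 fell within the range of those kept alone. Dnajb2 rose by 0.53 at 180 min (SE 0.15, adjusted p = 0.00547). Dnaja1, Dnaja2, Dnajb4, Dnajb5 and Dnajb6 did not pass the test in any comparison, with log2 fold changes at 180 min from -0.08 for Dnajb6 to 0.24 for Dnajb5.

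Class C J-domain genes, which lie outside the symbol prefixes and were taken from a separate list, had 27 of 29 tested. Of these, 2 fell at 45 min, 1 rose and 2 fell at 90 min, and 2 rose and 3 fell at 180 min. The share that fell was 7.41% at 45 min and 11.1% at 180 min, and the share that rose at 180 min was 7.41%, beside 6.11%, 16% and 15.1% of all tested genes. At 90 min 3.7% rose and 7.41% fell, beside 11.1% and 9.97% of all tested genes. Dnajc13, which works on endosomes, fell by 0.19 at 45 min (SE 0.04, edgeR adjusted p = 0.00146), 0.15 at 90 min (SE 0.04, adjusted p = 0.0116) and 0.23 at 180 min (SE 0.04, adjusted p = 3.30e-05). With the length and GC trend removed its value at 45 min was -0.03 (adjusted p = 0.783), and at 180 min it was -0.14 (adjusted p = 0.00191). Gak, which uncoats clathrin vesicles with HSP70, fell by 0.16 at 180 min (SE 0.04, adjusted p = 0.00275).

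The chaperonin genes had small differences, with log2 fold changes from -0.16 to 0.14 against macrophages alone. Of the 8 subunits, 1 rose at 45 min, 1 fell at 90 min and 1 fell at 180 min, and from 45 to 90 min 3 fell. A single subunit is 12.5% of the 8, beside 4.69% of all tested genes that rose at 45 min, and 9.97% and 16% that fell at 90 and 180 min, and the 3 subunits are 37.5%, beside 13.3%. Summed over the subunits, the level was 1091 ± 27.8 CPM (SD, n = 4) in macrophages alone, 1133 ± 31.1 CPM at 45 min, 1052 ± 28.8 CPM at 90 min and 1060 ± 40.8 CPM at 180 min (n = 4 each). Cct7 was at 156, 158, 164 and 164 CPM in macrophages alone, 179, 174, 178 and 178 CPM at 45 min, 154, 155, 153 and 143 CPM at 90 min, and 156, 142, 143 and 145 CPM at 180 min. The 45 min libraries were above all others. Cct7 rose by 0.14 at 45 min (SE 0.05, edgeR adjusted p = 0.0300), and when library 1 or 2 of macrophages alone was left out the adjusted p became 0.0739 or 0.0511. From 45 to 90 min it fell by 0.23 (SE 0.05, adjusted p = 0.000103). Its fall of 0.13 at 180 min (SE 0.05, adjusted p = 0.0301) was lost when library 2, 3 or 4 of macrophages alone or 180 min library 2, 3 or 4 was left out (adjusted p from 0.0580 to 0.127).

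Cct3 was at 108, 110, 123 and 122 CPM in macrophages alone, 109, 110, 119 and 127 CPM at 45 min, 103, 101, 109 and 101 CPM at 90 min, and 122, 107, 111 and 115 CPM at 180 min. The 90 min libraries were the lowest and overlapped those kept alone by 1 library. Cct3 fell by 0.16 at 90 min (SE 0.06, edgeR adjusted p = 0.0258), a call lost without library 3 or 4 of macrophages alone or 90 min library 2 or 4 (adjusted p from 0.0636 to 0.121). Cct6a fell by 0.15 from 45 to 90 min (SE 0.05, adjusted p = 0.0202). Tcp1, the first subunit named, was at 129, 144, 142 and 143 CPM in macrophages alone, 143, 136, 149 and 151 CPM at 45 min, 147, 125, 133 and 137 CPM at 90 min, and 147, 123, 132 and 142 CPM at 180 min, with overlap throughout. Neither Tcp1 nor Cct2, Cct4, Cct5 or Cct8 passed the test in any of the 5 comparisons made, and their log2 fold changes at 180 min were from -0.04 to -0.01.

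From the partners of the chaperonin, prefoldin and the tubulin cofactors, 14 genes were tested. At 45 min 0 rose and 0 fell by edgeR's test or DESeq2, beside 4.69% and 6.11% of all tested genes. At that time 0 had an unadjusted p under 0.05. At 90 min 2 rose (14.3%) and 1 fell (7.14%), beside 11.1% and 9.97% of all tested genes. At 180 min 3 rose (21.4%) and 1 fell (7.14%), beside 15.1% and 16%. Tbce, a tubulin cofactor, rose by 0.35 at 90 min (SE 0.09, adjusted p = 0.00191) and 0.41 at 180 min (SE 0.09, adjusted p = 0.000113), and the cofactor Tbcc rose by 0.67 at 180 min (SE 0.13, adjusted p = 5.30e-05). Pfdn6, a prefoldin subunit, fell by 0.34 at 90 min (SE 0.10, adjusted p = 0.00811) and 0.43 at 180 min (SE 0.10, adjusted p = 0.000419).

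Of the 4 mitochondrial genes, 1 fell at 90 and at 180 min (25%), beside 9.97% and 16% of all tested genes. Dnaja3, the J-domain partner of mitochondrial HSP70, was at 64.4, 63.0, 65.2 and 61.5 CPM in macrophages alone, 62.3, 63.2, 64.5 and 58.4 CPM at 45 min, 46.7, 48.9, 57.2 and 45.8 CPM at 90 min, and 60.9, 52.1, 52.8 and 56.2 CPM at 180 min. It was lowest at 90 min, and both later groups lay below those kept alone. Dnaja3 fell by 0.36 at 90 min (SE 0.07, edgeR adjusted p = 2.94e-05) and by 0.20 at 180 min (SE 0.07, adjusted p = 0.0167). It missed the threshold at 180 min when library 3 of macrophages alone was left out (adjusted p = 0.0654), as it did without 180 min library 2 (adjusted p = 0.0531) or 180 min library 3 (adjusted p = 0.0638). Exons of Dnaja3 overlap those of Coro7 on the opposite strand, which held 34894 counts beside 21123, and the strand setting of the counting is not given in the sources used here.

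Hspa9, the HSP70 that pulls proteins into the mitochondrial matrix, was at 459, 487, 487 and 472 CPM in macrophages alone, 498, 481, 511 and 498 CPM at 45 min, 470, 473, 488 and 467 CPM at 90 min, and 500, 468, 463 and 470 CPM at 180 min. Its log2 fold change was between -0.01 and 0.06 at the 3 times, and at 180 min its 95% confidence interval was -0.08 to 0.08. Hspd1 and Hspe1 encode the HSP60 and HSP10 parts of the mitochondrial chaperonin and are transcribed away from each other from a shared promoter. Hspd1 was at 106, 108, 114 and 113 CPM in macrophages alone, 104, 99.5, 109 and 109 CPM at 45 min, 110, 115, 116 and 106 CPM at 90 min, and 118, 115, 111 and 115 CPM at 180 min. Hspe1 was at 16, 18.9, 14.5 and 18.3 CPM in macrophages alone, 16.2, 16.2, 19.0 and 17.9 CPM at 45 min, 20.5, 20, 19.0 and 20.7 CPM at 90 min, and 15.6, 20.9, 15.8 and 18.2 CPM at 180 min. The 90 min libraries of Hspe1 were all above those kept alone, and those of Hspd1 overlapped them. Exons of Hspe1 overlap those of Hspd1 on the opposite strand, with 6330 counts beside 39320, so the level of Hspe1 is uncertain. Neither gene passed the test, with 0.25 for Hspe1 at 90 min (SE 0.10, edgeR adjusted p = 0.0809) and 0.06 for Hspd1 at 180 min (SE 0.05, adjusted p = 0.426).

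The array of 3 heat shock pentamers found before both genes is the same site between them, on opposite strands. The array is shown in the direction of Hspe1, from 95 to 66 bases before the start of Hspe1, with the span of its overlapping matches in capitals.
Hspe1, GRCm38.p6 chr1:55088053-55088082, plus strand: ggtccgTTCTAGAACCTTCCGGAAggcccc

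Of 10 other genes of mitochondrial folding and proteolysis, 0 rose and 0 fell at 45 min by edgeR's test or DESeq2 (2 were higher and 0 lower at an unadjusted p under 0.05), 3 rose and 1 fell at 90 min, and 4 rose and 1 fell at 180 min. Of all tested genes 4.69% rose and 6.11% fell at 45 min, 11.1% and 9.97% at 90 min, and 15.1% and 16% at 180 min. Grpel2, a nucleotide exchange factor for Hspa9, rose by 0.54 at 90 min (SE 0.08, adjusted p = 5.35e-07) and 0.50 at 180 min (SE 0.08, adjusted p = 1.28e-06). The proteases Htra2 and Clpp rose at 180 min by 0.30 (SE 0.07, adjusted p = 0.000841) and 0.51 (SE 0.13, adjusted p = 0.00154), and Clpb, a disaggregase, fell by 0.29 (SE 0.08, adjusted p = 0.00430).

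The small heat shock protein Hspb6, the cilium proteins Hspb11 and Dnajb13, and the binding proteins Hspbp1 and Hspbap1 did not pass the test in any comparison. Hspb6 was at 2.41 ± 0.440 CPM (SD, n = 4) in macrophages alone and 2.99 ± 1.25 CPM (n = 4) at 180 min, and Hspb11 was at 2.41 ± 0.563 and 2.7 ± 0.536 CPM. Dnajb13 was at 13.7 ± 1.23 CPM (n = 4) in macrophages alone and 16.8 ± 2.69 CPM (n = 4) at 90 min, but its exons overlap those of Ucp2 on the opposite strand, which held 100691 counts beside 5538, so its level is uncertain. Hspbap1 was at 0.35 on the log2 fold change scale at 180 min (SE 0.17, edgeR adjusted p = 0.114), and Hspbp1 was at -0.01 (SE 0.09, adjusted p = 0.976).

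Between times, 10 of 43 members (23.3%) fell from 45 to 90 min, beside 13.3% of all tested genes, and 0 rose by edgeR's test or DESeq2, beside 14.8% of all genes. They were Hsp90ab1, Hspa5, Dnajb12, Cct7, Dnaja3, Hspa8, Dnajb1, Cct3, Cct6a and Hspa2, with log2 fold changes from -0.35 for Hspa2 to -0.15 for Cct6a. The call of Cct3 was lost without 45 min library 4 (adjusted p = 0.0706). At an unadjusted p under 0.05, 2 members were higher, Dnaja1 at 0.12 (SE 0.06, adjusted p = 0.105) and Hspe1 at 0.21. Every 90 min library lay below every 45 min library for 11 of 43 members, beside 12.2% of all genes, and above for 0, beside 12.9%. From 90 to 180 min 2 members (4.65%) fell, Hspa5 and Hspa1l, beside 6.97% of all genes, and 1 member (2.33%) rose, Hspa12a, beside 4.45%. Hspa12a passed the filter on low counts through its 180 min libraries, so that call is not independent of its high value there. Between these times the groups did not overlap for 3 members that were lower, beside 6.99% of all genes, and for 2 that were higher, beside 5.27%. The members' summed level was 5418 ± 120 CPM (SD, n = 4) in macrophages alone, 5535 ± 128 CPM at 45 min, 5101 ± 67.6 CPM at 90 min and 5077 ± 167 CPM at 180 min (n = 4 each). The lowest library kept alone was at 5280 CPM and the highest 90 min library at 5197 CPM, while the 180 min libraries reached 5309 CPM and overlapped those kept alone.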

How the data were processed

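RNA of 16 libraries in 4 groups was used. The deposited table holds raw read counts by Ensembl gene ID with no normalization by the authors. Per the labels' protocols, ribosomal RNA was removed and a directional kit was used for library construction. Per the submitters' processing notes, the tools were STAR 2.7.9a, SAMtools and HTSeq, with the genome build mm39. Annotation release, strand setting and handling of multi-mapping or human reads were not given in the sources used here. Exons of 20 members overlap those of another gene, so their levels may depend on how such reads were counted. Cases on the opposite strand include Dnaja1 with Smu1 (30872 counts beside 31177) and Hspb6 with Lin37 (950 beside 4821). Column names give the group but no replicate number, so libraries 1 to 4 are names in file order. Symbols, found for 52083 of 55416 IDs, and exon lengths came from GENCODE M21, and promoters, found for 37 of 43 members, from RefSeq's table for GRCm38.p6. The members without a promoter there, which the motif searches could not cover, were Cct4, Hsp90aa1, Hsp90ab1, Hspa13, Hspa8 and Hspa9.

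Genes with too few counts were removed by edgeR's filter (minimum count 10, minimum total 15), TMM normalization was applied, and edgeR 4.0.16 in R 4.3.3 fitted all 16 libraries with group as the only term. The quasi-likelihood F test was used with Benjamini-Hochberg adjustment over 14168 genes. Standard errors (SE) were taken as |log2 fold change| over the square root of F. CPM values are counts over scaled library size, and those of cell type markers are summed counts over summed totals. The biological coefficient of variation was 7.81%, and libraries of a group differed by more than sampling noise (chi-square per degree of freedom from 3.98 to 10.3). Each library was counted as 1 replicate. This spread cannot show whether the libraries came from separate cultures. The test was tried on simulated data of the 45 min comparison with 14168 genes, where 70.0% of genes changed 1.5-fold and 76.8% of those changed 2-fold were recovered. Of 13688 unchanged genes, 6 were called. Changes smaller than 1.5-fold, the size of most changes reported here, were not simulated. DESeq2 1.42.0 was an alternative.

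The members and all lists were chosen with earlier results of these data known. Values in every library are given for the 16 members with the smallest p over the 3 times and for 7 others set by name. Of each of 7 lists of other folding genes (109 entries, all matched), up to 4 genes with the smallest p over the 3 times are named, besides Hsf1, Bag3, Hyou1, Ddit3 and Xbp1, and some of these are not reported here. Hsf4, Pdia3, Derl2 and the genes with the ER stress element were named after their values were seen.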

Additional observations from a re-analysis of the deposited data

Results flagged for a closer look

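Of 92 groups of 4 libraries checked (23 members in 4 groups), 5 held a library whose gap to its nearest neighbour took up a larger part of the group's range than Dixon's 95% critical value, and chance gives about 1 in 20. Cct7 was at 143 CPM in 90 min library 4, below the other 3 libraries at 153 to 155 CPM. Hspa12a was at 0.697 CPM in library 4 of macrophages alone, above the others at 0.189 to 0.252 CPM. Hsp90aa1 was at 238 CPM in 180 min library 3, below the others at 251 to 253 CPM. Dnajb2 was at 5.73 CPM in 45 min library 1, below the others at 9.28 to 9.97 CPM. Tcp1 was at 129 CPM in library 1 of macrophages alone, below the others at 142 to 144 CPM.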

How the results depend on the processing

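Results were recomputed under 23 alternatives to the main analysis. No paired analysis was possible because the columns of the count table carry no replicate number. Of 262 recomputed counts of called genes, 216 stayed within 1.5 times the main count and 46 did not. Nearly all of those were counts of 0 to 3. For members that fell at 45 min (1), the count was 0 without the filter on low counts, with libraries thinned to the depth of the shallowest, and with a trend on length and GC content removed, and the same holds for the 7 endoplasmic reticulum members (1, then 0). The count of members that rose at 45 min (1) was 2 with that trend removed. Of the 24 other endoplasmic reticulum genes, 2 instead of 1 fell at 45 min with only the groups compared in the fit or with DESeq2. Members that rose at 90 min against macrophages alone numbered 1 instead of 0 after thinning, among protein-coding genes alone and with the trend removed. After thinning, 1 instead of 2 rose at 180 min, 1 instead of 0 from 45 to 90 min, and 0 instead of 1 from 90 to 180 min. Hspa12a, the only member that rose from 90 to 180 min, was not tested after thinning. It kept its call in the 14 alternatives in which it was tested. From 90 to 180 min 3 rose among protein-coding genes alone, with the trend removed and with DESeq2.

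With each library left out in turn, members that rose numbered 0 to 2 at 45 min, 0 to 2 at 90 min, 2 to 3 at 180 min, 0 to 1 from 45 to 90 min and 1 to 2 from 90 to 180 min. Members that fell numbered 0 to 0 at 45 min, 6 to 10 at 90 min, 8 to 12 at 180 min, 9 to 11 from 45 to 90 min and 1 to 2 from 90 to 180 min, and 15 to 18 passed the test over the 3 times. The endoplasmic reticulum members that fell numbered 0 to 0, 3 to 3 and 4 to 5 at 45, 90 and 180 min, and the other endoplasmic reticulum genes 0 to 1, 6 to 9 and 11 to 14.

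Of 2051 recomputed gene values, 1869 kept their side of the threshold and direction, 114 lost and 67 gained the call, and 1 turned direction: Dnajb14 at 45 min, 0.03 with the length and GC trend removed. The causes were not tested. That trend also moved the split of all genes at 45 min from 664 higher and 865 lower to 694 and 370. Low counts limit Hspa1a, Hspa1b, Hspa1l, Hspb6, Hspb11 and Hspa12a, and also Hsf4.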
